A study of Mus musculus with 12 samples.

Results

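Satellite glia and astrocytes express overlapping sets of genes, and 10 of these genes were followed in the dorsal root ganglia (DRG) of mice that lack Nf2 alone or Nf2 together with Fak. The 10 genes were chosen with earlier results of these data known and were found by their symbols among the 49315 genes of the count table. Of the 10 genes, 7 mark satellite glia (Fabp7, Glul, Apoe, Gja1, Cdh19, S100b and Sox10) and 3 mark astrocytes (Gfap, Aqp4 and Mlc1). All 12 mice were 10 months old, and 8 DRG per mouse were dissected and sequenced as 1 poly(A) library. The 6 Nf2 mice were Postn-Cre(+) with Nf2 flox/flox, and the 6 DKO mice were Postn-Cre(+) with both Nf2 flox/flox and Fak1 flox/flox. Both groups therefore carried the Cre transgene and the Nf2 deletion, and the comparison asks what the added loss of Fak, annotated as Ptk2, changes in ganglia in which Nf2 mice form schwannomas. The Periostin promoter drives the recombinase in Schwann cells and their precursors, whereas whole ganglia were sequenced, so RNA of cells that do not recombine was counted as well. Each genotype held 3 mice labelled male and 3 labelled female, and no mice with intact Nf2 were analysed here.

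Satellite glia are the flat cells that wrap each sensory neuron body in a ganglion. They arise from the neural crest, as Schwann cells do, take up transmitter and potassium, and are joined to each other by gap junctions. Astrocytes do comparable work in the brain and spinal cord but do not normally populate the ganglion, and their processes end where the sensory root enters the cord. Few of the 10 genes belong to 1 cell type: Sox10, S100b and Cdh19 are also made by Schwann cells, Apoe by macrophages, Gfap by non-myelinating Schwann cells and by satellite glia after injury, and Glul and Gja1 by astrocytes. In bulk RNA, fewer cells of a type and less RNA per cell cannot be told apart.

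Libraries held 21129191 to 41250329 counts, and levels are given as CPM, the count of a gene divided by the total of its library and scaled to a fixed depth. All 10 genes were detected in every mouse, with 162 counts or more. Sensory neuron genes summed to 6297 to 8247 CPM and myelinating Schwann cell genes to 7506 to 10651 CPM, so the defining markers of the labelled tissue were present. Ptk2 was at 65.8 to 75.5 CPM in Nf2 mice and 46.5 to 76.0 CPM in DKO mice, with a log2 fold change of -0.15 ± 0.10 (SE, n = 6 per genotype, edgeR adjusted p = 0.529). Counts summed over a whole gene and all cells of a ganglion do not show the loss of an exon in one cell type, so Ptk2 was no check of the labels. The library labelled male from Nf2 mouse 702 held 496 CPM of Xist and 0.525 CPM of the Y-linked Ddx3y, unlike the other 5 libraries labelled male. Both values lay within those of the libraries labelled female, at 428 to 637 CPM of Xist and 0.15 to 0.852 CPM of Ddx3y. The sex label of mouse 702 thus conflicted with its counts, and how this arose was not tested. Mouse 702 was kept under its label, and tests by sex are given with and without it.

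The levels per length of the 10 genes covered a wide range. Divided by the length of all annotated exons, Apoe, which encodes the lipid carrier apolipoprotein E, was highest at 1625 ± 357 CPM per kilobase (SD, n = 12). S100b, a calcium-binding protein of glia, followed at 304.5 ± 81.8 CPM per kilobase. The adhesion molecule gene Cdh19 stood at 127 ± 26.1, the glial transcription factor gene Sox10 at 101 ± 13.7, the glutamine synthetase gene Glul at 83.1 ± 25.0 and the fatty acid binding protein gene Fabp7 at 58.2 ± 19.0 CPM per kilobase. Gfap, an intermediate filament protein, lay lower at 16.7 ± 8.68 CPM per kilobase, and the membrane protein gene Mlc1 reached 4.71 ± 1.96. The water channel gene Aqp4 was at 2.74 ± 1.21 and the gap junction gene Gja1 at 2.43 ± 0.551 CPM per kilobase. Apoe and S100b each stood apart from the gene below them in every mouse, while the other 7 of the 9 neighbouring pairs in this order overlapped between mice. The 3 astrocyte genes thus ranked seventh to ninth, and the lowest satellite glia gene, Gja1, did not separate from them. With the longest annotated transcript as the length, Gja1 moved above Mlc1 and Aqp4.

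**Figure D1:**
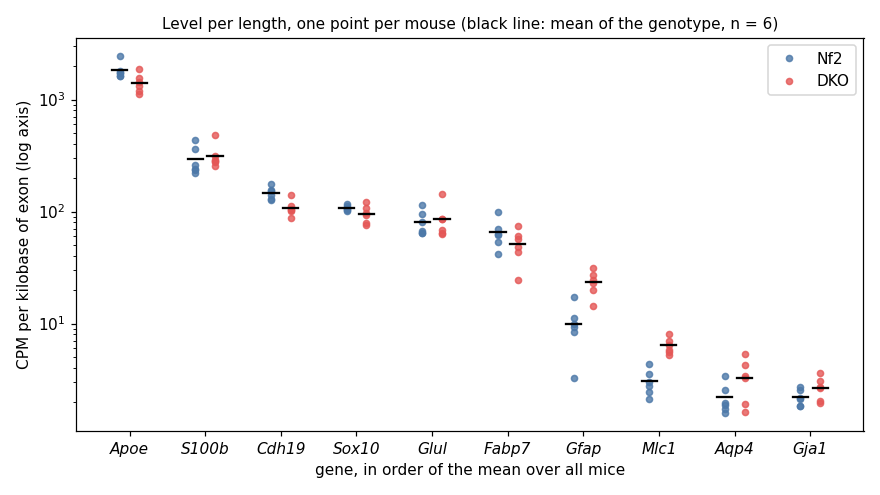
Level of each gene in CPM per kilobase of exon on a log axis, 1 point per mouse, with the mean of each genotype as a black line (n = 6 per genotype). Apoe stood above all other genes in every mouse, and Gfap, Mlc1, Aqp4 and Gja1 formed the low end.

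Of the 10 genes, Mlc1 alone passed the threshold between the genotypes in edgeR's quasi-likelihood test, at a Benjamini-Hochberg adjusted p under 0.05 over all genes tested. Over the 18295 genes tested, 172 passed, which is 0.940%, and 68 passed as higher in DKO mice, which is 0.372%. An unadjusted p under 0.05 was reached by 14.9% of the genes tested, the share against which such counts are read for the lists. The alternative tools passed more genes over all, 845 in DESeq2 and 521 in limma voom, and their calls below are read against these counts. The median log2 fold change was 1.05 over the 3 astrocyte genes, -0.19 over the 7 satellite glia genes and 0.0047 over all genes tested. All 3 astrocyte genes had positive fold changes, whereas 4 of the 7 satellite glia genes had negative and 3 had positive ones. Summed, the astrocyte genes reached 31.3 to 104.6 CPM in Nf2 mice and 87.7 to 175.9 CPM in DKO mice, and the satellite glia genes reached 5201 to 7272 CPM and 3975 to 5488 CPM, so that the genotypes overlapped in both sums. In every mouse Gfap was the largest part of the astrocyte sum, at 13.7 to 133.1 CPM. Apoe likewise was the largest part of the satellite glia sum, at 2381 to 5272 CPM.

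**Figure D2:**
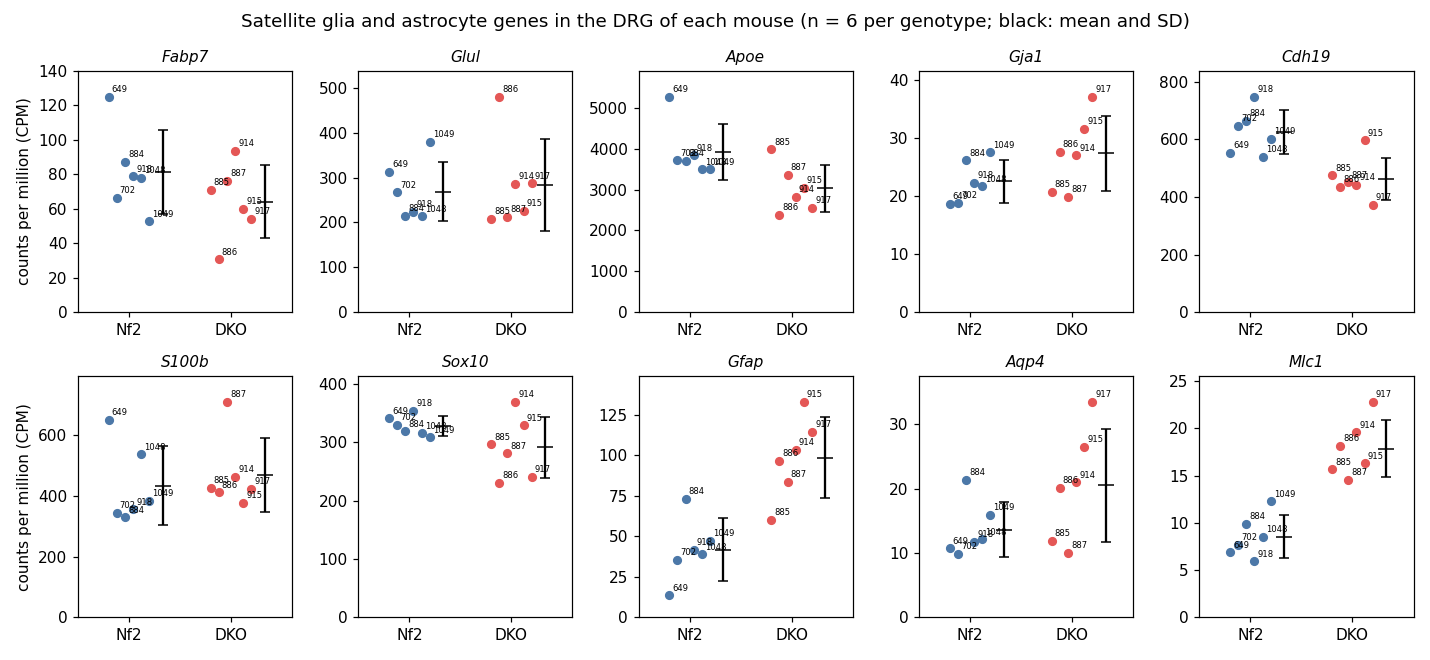
CPM of each of the 10 genes in every mouse, labelled by mouse number, with the mean and SD of each genotype in black (n = 6 per genotype). Mlc1 was the only panel without overlap between the genotypes, and in Gfap only Nf2 mouse 884 reached into the DKO range.

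Mlc1 encodes a membrane protein of astrocyte end feet whose loss in humans causes a leukodystrophy with brain swelling. The gene lies on the minus strand at chr15:88955884-88979007 (GRCm38, GENCODE M21) and is protein coding with 12 exon blocks. Nf2 mice 649, 702, 884, 918, 1048 and 1049 had 6.90, 7.69, 9.87, 5.95, 8.51 and 12.3 CPM, and DKO mice 885, 886, 887, 914, 915 and 917 had 15.7, 18.2, 14.5, 19.6, 16.3 and 22.8 CPM. Every DKO mouse was above every Nf2 mouse, a separation that 1.95% of all genes tested showed in either direction. The mean rose from 8.54 ± 2.28 to 17.8 ± 3.03 CPM (SD, n = 6 per genotype), and the log2 fold change was 1.05 ± 0.16 (SE, edgeR adjusted p = 0.0084). Leaving out any 1 mouse kept Mlc1 past the threshold, with log2 fold changes of 0.96 to 1.17 and edgeR adjusted p-values of 0.0088 to 0.0256. With 3 mice per genotype, the fold changes were 0.86 in females (edgeR adjusted p = 0.340) and 1.21 in males by label (edgeR adjusted p = 0.140), neither past the threshold, and 1.17 in males without mouse 702 (edgeR adjusted p = 0.392).

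Mlc1 lies 15.5 Mb from Ptk2 on chromosome 15, and Sox10 lies 5.73 Mb from it. DKO mice carry a modified Ptk2 allele on this chromosome, from Fak1 flox mice that the study bought from the Jackson Laboratory, and the genetic background of the sequence around it was not analysed here. Within 20 Mb of Ptk2, a distance chosen after the position of Mlc1 was known, 12 of 362 tested genes passed the threshold (3.31%), 8 higher and 4 lower in DKO mice, and within 10 Mb 8 of 233 did (3.43%). Both shares were above the 0.940% of all genes, and the part of linkage in the Mlc1 difference was not tested.

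Gfap, the filament protein by which reactive astrocytes and satellite glia are commonly stained, lies on the minus strand at chr11:102887336-102900912. Its CPM was 13.7, 35.7, 73.3, 41.9, 38.9 and 47.4 in Nf2 mice 649, 702, 884, 918, 1048 and 1049, and 60.1, 96.7, 83.8, 103.5, 133.1 and 114.8 in DKO mice 885, 886, 887, 914, 915 and 917. In DKO mice 5 of 6 values exceeded all Nf2 values, and all 6 exceeded the Nf2 mean. The means were 41.8 ± 19.3 and 98.7 ± 25.2 CPM (SD, n = 6 per genotype), the widest ratio of means among the 10 genes at 2.36. Nf2 mice spread from the low mouse 649 to the high mouse 884, and the log2 fold change of 1.22 ± 0.29 did not pass (edgeR adjusted p = 0.0700). It passed without mouse 649 (1.04, edgeR adjusted p = 0.0360), without mouse 884 (1.46, edgeR adjusted p = 0.0341), and over all mice in DESeq2 (adjusted p = 0.0015) and limma voom (adjusted p = 0.0385).

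Aqp4, the water channel that crowds at astrocyte end feet, ranged from 9.90 to 21.4 CPM with a median of 12.0 in Nf2 mice and from 10.0 to 33.5 CPM with a median of 20.6 in DKO mice. DKO mice fell apart into 885 and 887, at 11.9 and 10.0 CPM, and 4 mice at 20.2 to 33.5 CPM, and Nf2 mouse 884 at 21.4 CPM lay among the latter. The log2 fold change was 0.57 ± 0.27 (SE, n = 6 per genotype, edgeR adjusted p = 0.353). Gja1 encodes connexin 43, a gap junction protein of astrocytes that satellite glia also make, and lies on the plus strand at chr10:56377330-56402513. It ranged from 18.7 to 27.6 CPM with a median of 22.0 in Nf2 mice and from 19.9 to 37.2 CPM with a median of 27.4 in DKO mice, at a log2 fold change of 0.26 ± 0.15 (SE, edgeR adjusted p = 0.441). The same DKO mice 885 and 887 were lowest for Gja1, and 917 and 915 were highest for both genes.

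Among genes of lipid and transmitter handling, Apoe ranged from 3492 to 5272 CPM with a median of 3714 in Nf2 mice and from 2381 to 3988 CPM with a median of 2935 in DKO mice. DKO mouse 885 was the only one of its genotype within the Nf2 range, and the other 5 lay below every Nf2 mouse. The log2 fold change was -0.39 ± 0.14 (SE, n = 6 per genotype, edgeR adjusted p = 0.206). Fabp7 ranged from 52.6 to 125.0 CPM in Nf2 mice and from 30.6 to 93.5 CPM in DKO mice, with a log2 fold change of -0.36 ± 0.24 (SE, edgeR adjusted p = 0.536). Glul ranged from 213 to 380.0 CPM and from 208 to 480.3 CPM, with a log2 fold change of 0.06 ± 0.21 (SE, edgeR adjusted p = 0.931). The Nf2 and DKO mice overlapped in all 3 genes. Glul shares 116 exon bases with Teddm2 on the opposite strand, a gene with at most 50 counts, and the strand setting of the counting was not given in the sources used here.

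Sequences upstream of the start site are shown for Gfap, Gja1 and Apoe, because Apoe ran opposite to both other genes from mouse to mouse. They are the 250 bases before a RefSeq start on GRCm38.p6, read 5′ to 3′ along the gene's strand, and RefSeq entries matched 7 of the 10 genes (Fabp7, Glul, Apoe, Gja1, S100b, Gfap and Mlc1, but not Cdh19, Sox10 and Aqp4). Capitals mark matches on either strand to the STAT motif TTCNNNGAA, the AP-1 motif TGANTCA, the SOX motif ACAAAG or the TATA box TATAAA. The regions are chr11:102897201-102897450 on the minus strand for Gfap, chr10:56377050-56377299 on the plus strand for Gja1 and chr7:19699189-19699438 on the minus strand for the first of 3 Apoe starts. The Gfap window lies inside the GENCODE span of that gene, which reaches 102900912 on the minus strand. The RefSeq start of Gja1, directly after its window, lies before the GENCODE start at 56377330.
Gfap: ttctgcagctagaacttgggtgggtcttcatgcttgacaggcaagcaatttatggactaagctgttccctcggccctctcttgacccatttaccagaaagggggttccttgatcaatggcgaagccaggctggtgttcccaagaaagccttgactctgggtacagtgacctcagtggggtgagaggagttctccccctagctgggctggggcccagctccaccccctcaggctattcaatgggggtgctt
Gja1: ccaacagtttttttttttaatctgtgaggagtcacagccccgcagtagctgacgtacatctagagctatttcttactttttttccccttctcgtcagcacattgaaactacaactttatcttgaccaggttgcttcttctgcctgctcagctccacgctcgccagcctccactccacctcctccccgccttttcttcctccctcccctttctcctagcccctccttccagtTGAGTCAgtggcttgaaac
Apoe: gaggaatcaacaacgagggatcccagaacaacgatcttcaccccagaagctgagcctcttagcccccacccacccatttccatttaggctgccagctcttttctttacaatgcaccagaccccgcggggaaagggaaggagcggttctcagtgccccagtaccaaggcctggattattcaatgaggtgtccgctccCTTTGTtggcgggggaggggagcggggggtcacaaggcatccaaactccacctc
The Gja1 window held 1 AP-1 match and the Apoe window 1 SOX match, and the Gfap window held none of the 4 motifs. Among 32851 windows of that length before annotated starts, 7.02% held the STAT motif, 6.75% the AP-1 motif, 16.5% the SOX motif and 12.4% the TATA box. A match describes letters only, and its absence says no more than that these letters are not in the window.

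Cdh19, a cadherin of Schwann cell precursors and satellite glia, lies on the minus strand at chr1:110888326-110977584. Nf2 mice 649, 702, 884, 918, 1048 and 1049 had 552, 647, 663, 748, 539 and 601.5 CPM, and DKO mice 885, 886, 887, 914, 915 and 917 had 475, 435, 451, 442, 597 and 372 CPM. All DKO mice except 915 lay below every Nf2 mouse, and the means were 625 ± 77.8 and 462 ± 74.2 CPM (SD, n = 6 per genotype). The log2 fold change of -0.46 ± 0.11 did not pass (edgeR adjusted p = 0.0730), and it passed without DKO mouse 915 (-0.54, edgeR adjusted p = 0.0272), in DESeq2 (adjusted p = 0.0052) and in limma voom (adjusted p = 0.0335). Macrophage genes were lower in the same mice: 9 of 10 had negative fold changes, and C1qb, a complement component, passed at -0.71 ± 0.12 (SE, edgeR adjusted p = 0.0138). Csf1r was at -0.65, C1qc at -0.46 and Cx3cr1 at -0.57, and the exception was the scavenger receptor gene Cd163 at 1.48 (edgeR adjusted p = 0.169). In edgeR 7 of the 10 had an unadjusted p under 0.05 (14.9% of all genes), and these 7 include Cd163, which was higher. DESeq2 called 5 (C1qb, C1qc, Cx3cr1 and Csf1r lower, Cd163 higher) and limma voom called C1qb and Csf1r. Over all genes these tools called 845 and 521, against 172 in edgeR. The macrophage sum was 215 to 322 CPM in Nf2 mice and 177 to 238 CPM in DKO mice. The part of macrophages in the Cdh19 values was not tested. Sox10, the transcription factor that defines neural crest glia, was at 308 to 353 CPM in Nf2 mice and spread from 230 to 369 CPM in DKO mice, with a log2 fold change of -0.19 ± 0.10 (SE, edgeR adjusted p = 0.421). S100b was at 330.0 to 651 CPM and 379 to 711 CPM, with a log2 fold change of 0.10 ± 0.20 (SE, edgeR adjusted p = 0.861). Its highest mice were 649 and 1048 in the Nf2 group and 887 in the DKO group, and these 3 libraries also had the highest mitochondrial shares of all 12, at 4.45%, 3.15% and 5.60% against 1.99% to 2.91% in the others. The part of RNA quality in the S100b values was not tested.

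DKO mouse 886 stood apart in several of these genes. It had the highest Glul (480.3 CPM) and the lowest Fabp7 (30.6 CPM), Apoe (2381 CPM) and Sox10 (230 CPM) of all 12 mice, and also the lowest Ptk2. Its meningeal and perineurial genes summed to 1858 CPM, against 334 to 895 CPM in the other mice. Most of the sum in mouse 886 was Ptgds, at 1308 CPM against 28.5 to 497.6 CPM in the other mice. Without it, the log2 fold change was -0.16 for Glul, -0.21 for Fabp7, -0.33 for Apoe and -0.13 for Sox10, none of them past the threshold. The 8 meningeal and perineurial genes all had higher means in DKO mice, with a median log2 fold change of 0.54 and none past the threshold, led by Ptgds, the prostaglandin D synthase of the meninges (1.93 ± 0.53 SE, edgeR adjusted p = 0.107) and Aldh1a2, a retinoic acid synthesis enzyme (1.04 ± 0.32 SE, edgeR adjusted p = 0.135). Cldn1 was at 0.59 and Slc47a1 at 1.01. In edgeR 4 of the 8 had an unadjusted p under 0.05 (14.9% of all genes), Ptgds and Aldh1a2 passed in DESeq2, and Ptgds passed in limma voom. With their mean level as a covariate, Mlc1 stayed past the threshold at 0.95 ± 0.18 (SE, edgeR adjusted p = 0.0444), Gfap was at 0.96 and Fabp7 turned to 0.09.

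Among other genes of the same cell types, few passed the threshold. Of 13 further satellite glia genes, 12 were tested and 0 passed in edgeR (0 higher, 0 lower), 2 had an unadjusted p under 0.05 (14.9% of all genes), and the median log2 fold change was -0.06; DESeq2 and limma voom also called 0. Those with the smallest p were the transcription factor gene Sox2 (-0.34 ± 0.11 SE), the phosphatase gene Ptprz1 (-0.45 ± 0.20) and the anion channel gene Ttyh1 (-0.32 ± 0.16). Of 12 further astrocyte genes, 9 had positive and 3 negative fold changes with a median of 0.25. In edgeR 4 had an unadjusted p under 0.05 (14.9% of all genes), Gjb6 and Fgfr3 higher, Acsbg1 and Hepacam lower. Of these, 1 passed the threshold (0.940% of all genes). That gene was Acsbg1, an acyl-CoA synthetase, which was lower in DKO mice at -0.69 ± 0.13 (SE, edgeR adjusted p = 0.0223), with 158 to 237 CPM in Nf2 mice and 90.1 to 141 CPM in DKO mice and no overlap. Gjb6, which encodes connexin 30, another gap junction protein of astrocytes, was at 1.37 ± 0.38 (SE, edgeR adjusted p = 0.107) and passed in DESeq2. Hepacam, whose product binds the Mlc1 protein, was at -0.32 ± 0.11 (SE, edgeR adjusted p = 0.164), and the growth factor receptor gene Fgfr3 at 0.67 ± 0.30 (SE, edgeR adjusted p = 0.322).

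Schwann cell, neuron and muscle genes were read in the same way. None of the 10 myelinating Schwann cell genes tested passed (median 0.06, led by Cldn19 at 0.39 ± 0.11 SE and Pllp at 0.33 ± 0.10, with Mbp at -0.13 and Egr2 at 0.14), nor any of the 9 tested genes of non-myelinating and repair Schwann cells (median -0.08, led by Ncam1 at -0.34 ± 0.08, with Gdnf at -0.62, Scn7a at -0.18 and L1cam at -0.08), where 2 and 1 had an unadjusted p under 0.05 in edgeR. Cldn19, Pllp and Ncam1 passed in DESeq2, and Ncam1 also in limma voom. Of 11 sensory neuron genes 0 passed in edgeR and 0 had an unadjusted p under 0.05, with a median of -0.01, and DESeq2 and limma voom called 0 as well. Those with the smallest p were Prdm12 (-0.19), Nefh (0.08), Uchl1 (-0.07) and Tubb3 (-0.06). All 10 genes of the skeletal muscle list had negative fold changes with a median of -2.09 and summed to 52.2 to 1125 CPM in Nf2 mice and 63.8 to 371.5 CPM in DKO mice. Pvalb of this list was at 38.9 to 80.9 CPM in Nf2 mice and 41.2 to 60.8 CPM in DKO mice (log2 fold change -0.29), so the lowest sums were mostly Pvalb. In edgeR 0 passed although 8 had an unadjusted p under 0.05 (14.9% of all genes), with 0 in DESeq2 and limma voom. Those with the smallest p were Tnnt3 (-2.28), Tnni2 (-2.08), Actn3 (-1.96) and Mylpf (-1.96), all of the contractile apparatus. With the muscle level as a covariate, Mlc1 was at 1.13 ± 0.18 (SE, edgeR adjusted p = 0.0220) and Gfap at 1.41 ± 0.33 (SE, edgeR adjusted p = 0.0978).

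**Figure D3:**
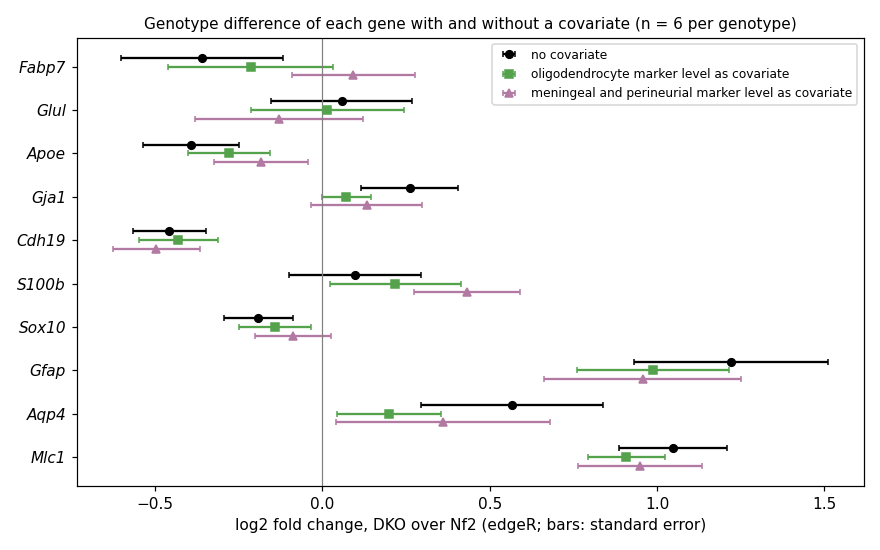
Log2 fold change of each gene, DKO over Nf2, with its standard error (n = 6 per genotype), without a covariate and with the oligodendrocyte or the meningeal and perineurial marker level of each mouse as covariate. Mlc1 and Gfap stayed near 1 in all 3 fits, whereas Aqp4 fell from 0.57 to 0.20 and Gja1 from 0.26 to 0.07 with the oligodendrocyte level.

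Genes of oligodendrocytes and spinal cord neurons were detected at uneven levels. Oligodendrocytes, the myelinating cells of brain and cord, are defined by Mog, which was at 0.607 to 5.18 CPM over the mice, and by Opalin, which was at 0 in 1 of 12 mice and at most 1.29 CPM. Their 10 genes summed to 152 to 297 CPM in Nf2 mice and 198 to 372 CPM in DKO mice, and of 9 tested 8 had positive fold changes with a median of 0.45, 0 passed in edgeR and 0 had an unadjusted p under 0.05. Most of the sum came from Bcas1 (97.7 to 157 CPM) and Mobp (11.2 to 137 CPM). The smallest p were those of Ermn (0.76), Klk6 (0.79), Hapln2 (0.62) and Mog (0.55). Spinal cord neuron genes summed to 10.6 to 41.7 CPM in Nf2 mice and 8.35 to 67.4 CPM in DKO mice, and of 6 tested 0 passed in edgeR and 0 had an unadjusted p under 0.05, with a median of 0.57 and the smallest p for Gad2 (0.92), Lmx1b (-0.24), Gad1 (0.49) and Slc32a1 (0.81). DESeq2 and limma voom called 0 in both lists. The motor neuron markers Chat and Mnx1 were at 0 in 3 and 5 of the 12 mice. The mice highest in cord neuron genes were DKO 917 (67.4 CPM), Nf2 1049 (41.7), Nf2 884 (36.6), DKO 915 (33.4) and DKO 914 (31.2), while the other 7 lay at 15.0 CPM or below.

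With the mean oligodendrocyte level of each mouse as a covariate, the log2 fold change of Mlc1 was 0.91 ± 0.11 (SE, edgeR adjusted p = 0.0065) and that of Gfap 0.99 ± 0.23 (SE, edgeR adjusted p = 0.0847). Those of Aqp4 and Gja1 shrank to 0.20 ± 0.16 and 0.07 ± 0.07, at edgeR adjusted p-values of 0.714 and 0.799. The source of the oligodendrocyte and cord neuron RNA was not tested.

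**Figure D4:**
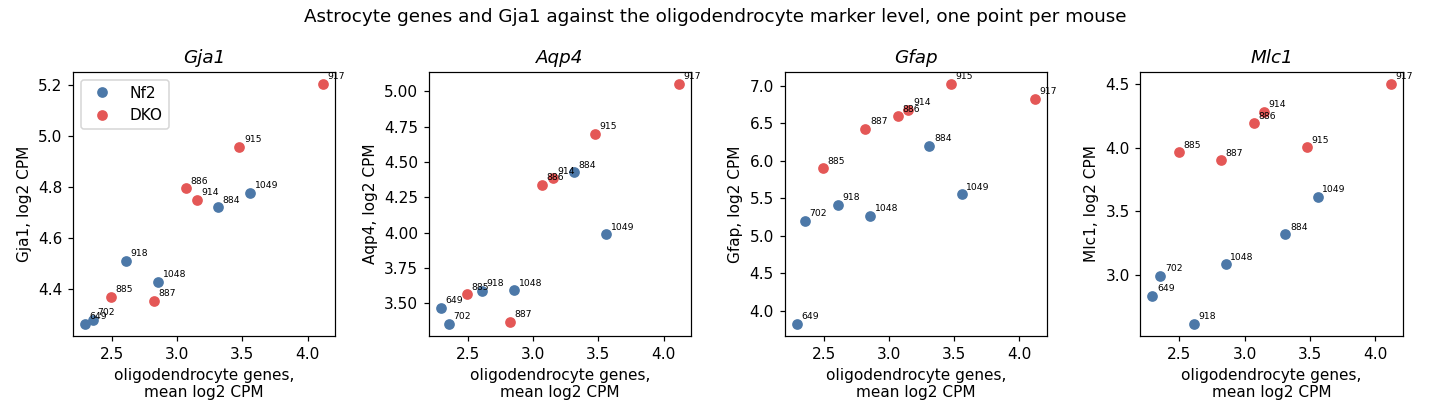
Level of Gja1, Aqp4, Gfap and Mlc1 in log2 CPM against the mean log2 CPM of the oligodendrocyte genes, 1 point per mouse, coloured by genotype. Gja1 and Aqp4 followed the oligodendrocyte level with both genotypes intermixed (r = 0.94 and 0.88), and for Mlc1 the DKO mice lay above the Nf2 mice along the whole range.

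How the genes varied together between mice was computed on log2 CPM for 45 pairs of the 10 genes and for 50 pairs of a gene with the mean of a marker list, with permutation p-values adjusted over all 95 relations. By Pearson's r 11 relations passed, by Spearman's rho 9 and by both 8. Each of these counts includes the same 3 relations of Mlc1 (with Gfap, Apoe and Cdh19), which mix the separate levels of the 2 genotypes and are not read over all mice. Leaving out 1 mouse at a time left 5 to 15 of the 95 by Pearson's r, with 5 without DKO mouse 917 and 6 without Nf2 mouse 649. Both genes of a pair come from the same library, so they share its dissection and RNA. The permutations exchanged all 12 mice without regard to genotype, so a relation of measures that differ between the genotypes includes that difference. The closest pair was Gja1 with Aqp4 over the 12 mice, at r = 0.964 (permutation p = 1e-05, the smallest that the resampling can give, adjusted p = 0.000475) and rho = 0.909 (permutation p = 8e-05, adjusted p = 0.0076). The relation was present within the Nf2 mice (r = 0.873) and within the DKO mice (r = 0.990), and r was 0.949 without the 2 mice farthest from the median of Gja1. Among 12465 genes with a mean of at least 5 CPM, Aqp4 was the gene most like Gja1 and Gja1 the gene most like Aqp4, and Slc4a4 followed for both (r = 0.936 and 0.943), after Hoxb9 for Gja1 (r = 0.946) and Efnb3 for Aqp4 (r = 0.948).

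The oligodendrocyte level correlated with Gja1 at r = 0.945 (permutation p = 1e-05, adjusted p = 0.000475) and rho = 0.902 (permutation p = 0.00018, adjusted p = 0.00855). It correlated with Aqp4 at r = 0.883 (permutation p = 0.00022, adjusted p = 0.0055) and rho = 0.874 (permutation p = 0.00039, adjusted p = 0.0093). Within genotypes, r was 0.959 and 0.949 for Gja1 and 0.845 and 0.907 for Aqp4, and without the 2 farthest mice it was 0.888 and 0.806. With Gfap the oligodendrocyte level had r = 0.683 (permutation p = 0.0143, adjusted p = 0.0753), with 0.712 and 0.807 within the Nf2 and DKO mice. For Mlc1, r with this level was 0.856 within the Nf2 mice and 0.769 within the DKO mice, without a test. With Glul the oligodendrocyte level had an r of 0.17.

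Apoe ran opposite to Gfap and Gja1, whose upstream windows are printed with its own. Its r was also negative with Aqp4 (-0.717, permutation p = 0.00799, adjusted p = 0.0506) and with the oligodendrocyte level (-0.703, permutation p = 0.0109, adjusted p = 0.0647), neither past the threshold. Within the Nf2 and DKO mice r was -0.374 and -0.772 for Aqp4 and -0.649 and -0.693 for the oligodendrocyte level. Apoe with Gfap had r = -0.856 (permutation p = 0.00051, adjusted p = 0.0097) and rho = -0.790 (permutation p = 0.00342, adjusted p = 0.0361). Within the Nf2 and DKO mice r was -0.842 and -0.715, and without the 2 farthest mice it was -0.753. Nf2 mouse 649 had the highest Apoe and the lowest Gfap of all 12 mice. Apoe with Gja1 gave r = -0.765 (permutation p = 0.00373, adjusted p = 0.0322) and rho = -0.748 (permutation p = 0.00727, adjusted p = 0.0628), with r = -0.596 and -0.784 within the genotypes and -0.805 without the 2 farthest mice.

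S100b varied with the sensory neuron genes, and the 3 libraries highest in both were those of mice 649, 1048 and 887, which also had the highest mitochondrial shares. Their sensory neuron level was 8.79, 8.65 and 8.70 in mean log2 CPM, against at most 8.56 in the other mice, and the part of RNA quality in this relation was not tested. Its r with the sensory neuron level was 0.894 (permutation p = 0.00023, adjusted p = 0.0055) and its rho 0.797 (permutation p = 0.00285, adjusted p = 0.0361). Within the Nf2 and DKO mice r was 0.910 and 0.966, and without the 2 farthest mice it was 0.742. The genes most like S100b were Polr2h (r = 0.983), Mblac2 (r = 0.981) and the synaptic adhesion gene Nrxn3 (r = 0.978). With Sox10, which is made by the same glia, S100b had an r of -0.01.

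The neural crest genes Fabp7 and Sox10 varied together by Pearson's r at 0.775 (permutation p = 0.00264, adjusted p = 0.0279) but not by Spearman's rho at 0.685 (permutation p = 0.0171, adjusted p = 0.0900). Within genotypes r was 0.575 and 0.813, and it was 0.595 without the 2 farthest mice. Cdh19 followed the macrophage level at r = 0.780 (permutation p = 0.00323, adjusted p = 0.0307) and rho = 0.720 (permutation p = 0.0102, adjusted p = 0.0664). Within the Nf2 and DKO mice r was 0.807 and 0.414, and without the 2 farthest mice it was 0.561. Cdh19 and most macrophage genes were lower in DKO mice, a step that the permutation p includes, and r within genotypes was not tested. The genes most like Cdh19 were Plce1, Pkd2 and P4hb (r = 0.975, 0.953 and 0.945), those most like Fabp7 were Fam19a5, Emp3 and Cmtm5 (r = 0.953, 0.918 and 0.916), and those most like Sox10 were Entpd2, Slc35b2 and Wipi1 (r = 0.959, 0.938 and 0.928).

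**Figure D5:**
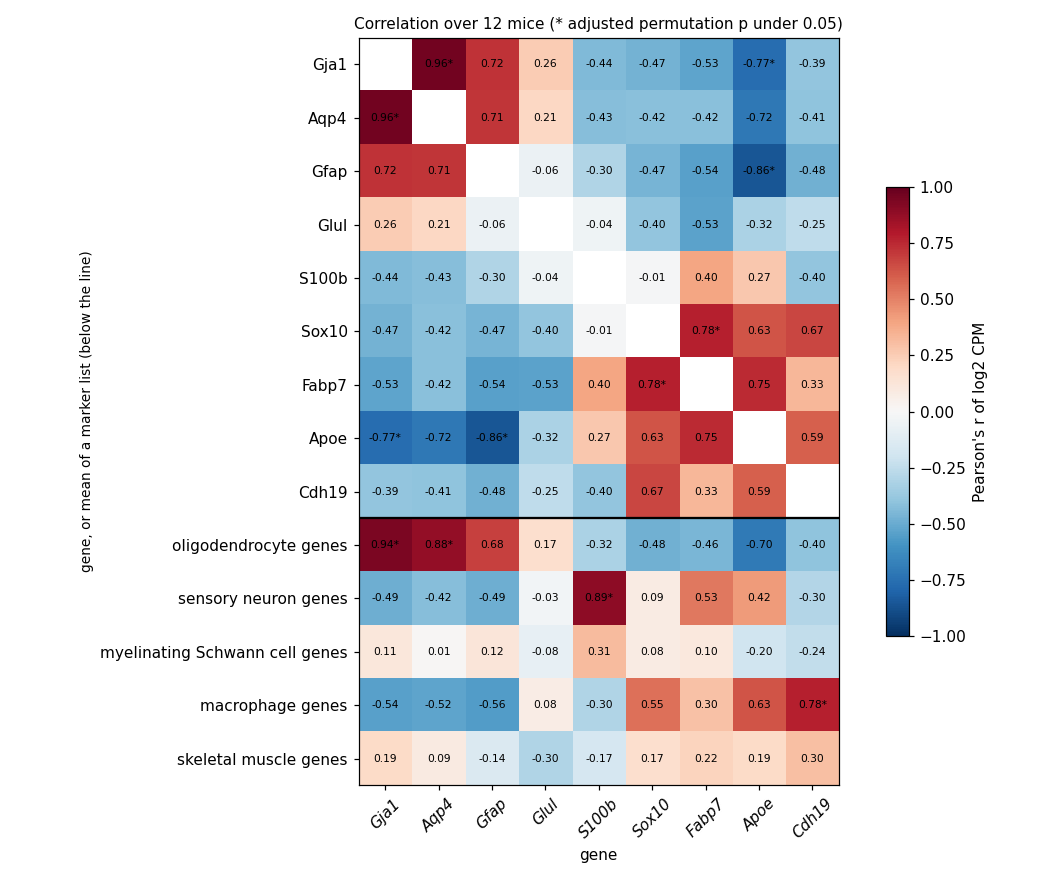
Pearson's r of log2 CPM over the 12 mice between 9 of the genes and, below the line, with the mean of 5 marker lists. Stars mark adjusted permutation p-values under 0.05. Gja1 and Aqp4 share the strongest relation, and both carry a star with the oligodendrocyte genes. Gfap had r = 0.68 with that level, without a star. Mlc1 is left out because its genotypes did not overlap.

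The levels of Mlc1 did not overlap between the genotypes, with at most 12.3 CPM in Nf2 mice and at least 14.5 CPM in DKO mice. Its 14 relations over all mice are therefore not read. Its correlations with the other 9 genes are given within each genotype, 18 in all with exact permutation tests. None passed after adjustment, and the smallest adjusted p was 0.250. With Gfap, r was 0.48 in Nf2 mice (exact p = 0.332, n = 6) and 0.45 in DKO mice (exact p = 0.386, n = 6), and rho was 0.60 in both (exact p = 0.242). With Aqp4, r was 0.66 in Nf2 mice (exact p = 0.168) and 0.78 in DKO mice (exact p = 0.0764). With Sox10, r was -0.90 in Nf2 mice (exact p = 0.0139, adjusted p = 0.250) and -0.32 in DKO mice (exact p = 0.536). By the same measure over all mice, which for Mlc1 includes the step between genotypes, the genes most like Mlc1 were Mthfsd, Sorcs3 and Rims4 (r = 0.957, 0.938 and 0.925), and those most like Gfap included Tnfrsf19 and Hoxb7 (r = 0.950 and 0.943). For Apoe they were Fkbp7, Btd and Yif1a (r = 0.967, 0.927 and 0.923), and for Glul Ppp1r21, Stard7 and Tob2 (r = 0.842, 0.816 and 0.788).

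By labelled sex, none of the 10 genes passed in edgeR, where 3 genes of all passed (0.0164%), and none of the 10 had an unadjusted p under 0.05. Without mouse 702, 10 genes of all passed and again none of the 10, with 1 at an unadjusted p under 0.05. The dependence of the genotype difference on sex passed for 2 genes of all (0.0109%) and for none of the 10, of which Gja1 had an unadjusted edgeR p of 0.0309 (adjusted p = 0.920). Gja1 was at 21.7 to 27.6 CPM in female Nf2, 19.9 to 27.7 in female DKO, 18.7 to 26.2 in male Nf2 and 27.1 to 37.2 CPM in male DKO mice by label (n = 3 each), so that the male groups alone did not overlap. Aqp4 and Gfap were also highest in the DKO mice labelled male, at 21.02 to 33.5 and 103.5 to 133.1 CPM against 10.0 to 20.2 and 60.1 to 96.7 CPM in those labelled female. The interaction terms were 0.82 ± 0.45 for Aqp4 and 0.56 ± 0.58 for Gfap (SE, edgeR adjusted p = 0.920 and 0.924), and without mouse 702 they were 0.62 ± 0.44 for Aqp4, 0.47 ± 0.64 for Gfap and 0.53 ± 0.26 for Gja1 (SE, edgeR adjusted p = 0.772, 0.830 and 0.772). Mouse 702 was neither the lowest nor the highest of the Nf2 mice labelled male for Gja1 and Gfap, and without it the Aqp4 range of the others was 10.7 to 21.4 CPM.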

How the data were processed

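Dorsal root ganglia of 12 mice were sequenced by a commercial provider after poly(A) selection. The authors deposited raw counts, 1 whole number per gene and mouse, with no normalization. The submitters' processing notes name Trimmomatic 0.36, STAR 2.5.2b, featureCounts, Subread 1.5.2 and GRCm38, while the annotation release, the strand setting and the handling of reads with several matches were not given in the sources used here. Of the gene IDs, 49056 (99.5%) occurred in GENCODE M21, which gave coordinates and lengths.

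Samples were grouped by the genotype in their labels, and mouse numbers served as replicate names. No 2 libraries agreed within sampling noise (chi-square divided by its degrees of freedom was 9.72 to 81.2 over 66 pairs). Genes were kept by edgeR's filterByExpr, scaled by trimmed mean of M values and compared by the quasi-likelihood test (glmQLFit, glmQLFTest) over all 12 mice without covariates, with Benjamini-Hochberg adjustment over the 18295 genes tested and a threshold of 0.05. Standard errors were taken from the log2 fold change and its F statistic. Sex by label was tested with genotype as covariate, and the interaction in a model of both. Correlations used log2 CPM with a prior count of 2 and 100000 permutations. The code was tested on simulated data. Tools were R 4.3.3, edgeR 4.0.16, limma 3.58.1, DESeq2 1.42.0 and, in Python 3.11.15, pandas 2.3.3, scipy 1.17.1 and matplotlib 3.10.9.

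The 10 genes and the gene lists were chosen with earlier results of these data known. Named were all 10 genes, the up to 4 genes of each list with the smallest p, the 3 genes most like each of the 10 by Pearson's r, and Ptk2. Of the genes this rule gives, 2 are not reported here. Beyond that rule, Teddm2, Cd163, Xist, Ddx3y, Bcas1, Mobp, Pvalb and single markers at or near 0 are named after their values were seen. Alternatives were other scalings, no filter, DESeq2, limma voom, covariates, each sex alone and leaving out each mouse. The meningeal and muscle covariates, the males without mouse 702, the windows around Ptk2 and the tests of Mlc1 within genotypes were chosen after seeing the data. The p-values of edgeR, DESeq2 and limma voom set a difference between groups against the spread between mice. Those of the correlations come from permuting mice.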

Additional observations from a re-analysis of the deposited data

Results flagged for a closer look

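In 20 groups of 6 mice (10 genes in 2 genotypes), 3 mice stood far from the others of their genotype by Dixon's test, where chance gives about 1 in 20 groups. Glul in DKO mouse 886 was at 480.3 CPM, with the nearest DKO mouse at 287 CPM and a gap of 0.71 of the group's range. Apoe in Nf2 mouse 649 was at 5272 CPM, with the nearest at 3834 CPM and a gap of 0.808 of the range. S100b in DKO mouse 887 was at 710.5 CPM, with the nearest at 464.2 CPM and a gap of 0.742 of the range. The library of mouse 649 also had the lowest Gfap, that of 886 the highest meningeal and perineurial sum and that of 887 the highest mitochondrial share, and the part of these in the values was not tested. Without these mice the log2 fold changes were -0.16 for Glul (without 886), -0.28 for Apoe (without 649) and -0.08 for S100b (without 887), none past the edgeR threshold.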

How the results depend on the processing

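Over 25 alternatives for each of the 10 genes, Mlc1 kept its direction in all and passed in 22, all but females only and males only by label, with or without mouse 702. Gfap passed in 4, Cdh19 in 3 and the other 7 genes in none. Directions turned only for genes that never passed: Glul with voom (-0.076), with the meningeal covariate (-0.13), with the muscle covariate (-0.081) and in males (-0.041, or -0.037 without 702), Fabp7 with the meningeal covariate (0.093), Gja1 in females (-0.066) and S100b in males (-0.12, or -0.27 without 702). Leaving out 1 mouse gave -0.16 to 0.17 for Glul, negative without Nf2 884 (-0.00061), Nf2 1048 (-0.01) or DKO 886 (-0.16), and -0.078 to 0.26 for S100b, negative without DKO 887. The number of all genes past the threshold, 172, was 845 in DESeq2, 521 in voom, 90 with the oligodendrocyte, 94 with the meningeal and 95 with the muscle covariate, 57 in females, 2 in males and 9 in males without 702, and 81 (without Nf2 918) to 217 (without DKO 887) with 1 mouse left out, and 87 to 114 without Nf2 702, 884 or 1049 or DKO 885, 914 or 917. Of the 10 genes, 3 passed in DESeq2 and 3 in voom, 0 in females and 0 in males with or without 702, and 1 to 2 with 1 mouse left out. Of the genes in the other lists, 2 passed, against 12 in DESeq2, 5 in voom, 1 with the oligodendrocyte and 1 with the meningeal covariate, 0 in males with or without 702 and 1 (without Nf2 702, DKO 914 or DKO 917) to 4 (without Nf2 1048 or DKO 887) with 1 mouse left out. Fewer mice per genotype enter the fits by sex, and the other causes were not tested. Genes past the threshold by sex rose from 3 to 10 without mouse 702. Relations past the threshold, 11, were 5 to 15 with 1 mouse left out. No paired analysis was possible because the genotypes share no mouse numbers. The lowest count of the 10 genes was 162, and their precision is set by the spread over 6 mice per genotype.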
